A study of Mus musculus with 6 samples.

Results

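Replication-dependent histone cluster genes, the source of the histones that package newly made DNA, were compared between control and KO-labelled mouse testes. Members were all protein-coding genes of the deposited table whose symbol in the older nomenclature names a histone class in cluster Hist1, Hist2, Hist3 or Hist4. Of the 54232 genes in the table, 70 carried such a symbol, 3 of these were not protein-coding, and 67 remained. They comprised 6 H1, 18 H2A, 18 H2B, 12 H3 and 13 H4 genes. Cluster Hist1 on chromosome 13 held 54 of them, Hist2 on chromosome 3 held 10, Hist3 on chromosome 11 held 2 and Hist4 on chromosome 6 held 1.

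The study asked how loss of the exoribonuclease DIS3L2 from male germ cells changes the testis transcriptome, and RNA of whole testes, collected at postnatal day 12, was sequenced in bulk as 3 control and 3 KO libraries. All mice carried the strain label B6D2F1 inbred, and the genotype labels were *Dis3l2* WT and *Dis3l2* KO. The paper describes the KO animals as *Stra8-Cre*; *Dis3l2* F/- and the controls as their littermates, so Cre was driven by a promoter active in germ cells and somatic cells of the KO animals kept a floxed and a null allele, while the design text names *Dis3* instead of *Dis3l2*. The labels name no treatment.

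In these counts the targeted gene did not differ clearly between groups, so the second group is called KO-labelled here. In KO testes of this age the paper reports less *Dis3l2* mRNA by RT-qPCR and less protein by immunoblot. It also reports loss of the mRNA from germ cells by in situ hybridization. Levels are given as CPM, the counts of a gene relative to the library total, scaled by TMM, a method that sets the average gene to no change. *Dis3l2* was at 25.8, 23.5 and 23.0 CPM in control and at 31.6, 25.4 and 27.5 CPM in KO-labelled libraries, and the groups overlapped. Its log2 fold change, KO-labelled minus control throughout, was 0.22 ± 0.11 (SE, n = 3 per group, edgeR adjusted p = 0.136), and it turned to -0.22 when the libraries were scaled by somatic markers. The count covers all annotated exons of the gene, whether or not they lie in the deleted part. *Dis3*, the homologous ribonuclease of the RNA exosome, had 133, 148 and 137 CPM against 59.1, 64.3 and 68.1 CPM (log2 fold change -1.13 ± 0.08, edgeR adjusted p = 2.7e-07). Every KO-labelled library was below every control library for *Dis3*. Library totals ran from 33325483 to 44956193 counts. The paper calls the 3 libraries of each group biological replicates, but the labels do not say whether they came from separate mice. The p-values therefore measure only the spread between these libraries.

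Replication-dependent histones are made in S phase, in step with DNA synthesis, from clustered genes that mostly lack introns. Their mRNAs are the only common animal mRNAs that usually end without a poly(A) tail, in a short RNA hairpin, the stem-loop, that is bound by SLBP. Transcription depends on NPAT, a target of cyclin E and its kinase, and when DNA synthesis stops the mRNAs are decayed, in part after the terminal uridylyltransferases TUT4 and TUT7 add uridines to their 3′ ends, the kind of tail that DIS3L2 recognizes. Male germ cells also make testis-enriched members, among them H1t from *Hist1h1t*, TH2A from *Hist1h2aa* and TH2B from *Hist1h2ba*, before most histones are exchanged later in sperm formation.

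The stem-loop is shown first because it defines these mRNAs. A search of the annotated 3′ UTRs (GENCODE M21 transcripts on GRCm38, sense strand) for a 16-base hairpin of this kind found it in 46 members, between 22 and 59 bases after the stop codon with a median of 32. Of the others, 13 had no annotated 3′ UTR, in which case no search was possible. The annotated 3′ UTRs of *Hist1h2ah* and *Hist1h2af*, of 2 and 1 bases, were too short to hold it. Capitals mark the 6 bases on each side that pair to form the stem, and lower case marks the loop. The forms carried by more than 1 member were as follows.
Form carried by 26 members, among them *Hist1h1c*, *Hist1h2ac*, *Hist1h2bm* and *Hist3h2ba*: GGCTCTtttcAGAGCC
Form carried by 7 members, all of them H4 genes, among them *Hist1h4c* and *Hist1h4n*: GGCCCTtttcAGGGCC
Form carried by 6 members, among them *Hist1h1t*, *Hist1h2bb* and *Hist1h2bk*: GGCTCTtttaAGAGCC
Form carried by *Hist1h4i* and *Hist2h4*: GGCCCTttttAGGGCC
Form carried by *Hist1h4b* and *Hist1h4j*: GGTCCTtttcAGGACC
The most common form was carried by H1, H2A, H2B and H3 genes alike. The remaining 3 of the 8 distinct forms occurred once each. *Hist1h4i* and *Hist2h4*, which carried the same 16 bases, had log2 fold changes of opposite sign in every setting tried. That of *Hist2h4* was only 0.10 when the libraries were scaled by somatic markers (edgeR adjusted p = 0.588). These genes were set side by side after their values were seen.

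Histone cluster genes were mostly lower in the KO-labelled testes. Of the 67 members, 62 passed the filter on low counts and were tested among 20327 genes. Called lower were 36 members (of all genes tested, 16.5% were), and called higher were 2, *Hist1h2bc* and *Hist2h4* (of all genes tested, 16.2%), a call being an edgeR adjusted p under 0.05. The other 24 were not called. At an unadjusted p under 0.05, 45 members passed in either direction. In H1, H2A and H3, the classes with 0 rises by edgeR, DESeq2 and limma-voom also called 0, and 1 member of each class was higher at an unadjusted p under 0.05. The median log2 fold change of the tested members was -0.66, against -0.02 over all genes tested. A fall of 2-fold or more was called for 26 members (6.05% of all genes tested) and a rise of 2-fold or more for 0 (1.36% of all genes tested). All KO-labelled libraries lay below all control libraries for 34 tested members (23.8% of all genes tested) and above them for 7 (21.7%). Without the testis-enriched *Hist1h1t*, *Hist1h2aa* and *Hist1h2ba*, 33 of 59 members were called lower, with a median of -0.64. *Hist3h2ba* (log2 fold change -2.46) and *Hist3h2a* (0.45), also listed beforehand as testis-enriched, were kept in this count. In whole testes, fewer cells of a type and less RNA per cell cannot be told apart.

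These genes also took a smaller share of each library. They held 0.389%, 0.365% and 0.442% of all counts in the control and 0.156%, 0.145% and 0.150% in the KO-labelled libraries. The groups did not overlap. Control library 3 was the highest of the controls for 46 of the 62 tested members, and without it 29 members were called lower and 3 higher, while leaving out any other library gave 33 to 37 lower. Scaling by 76 markers of somatic cells moved the log2 fold change of the median gene by -0.438, and on that scale 45 members were called lower and 0 higher. The shares of all genes given above are for the TMM scale, and those on the somatic scale are not given here. The change in these counts can therefore not be read as particular to histone genes.

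**Figure D1:**
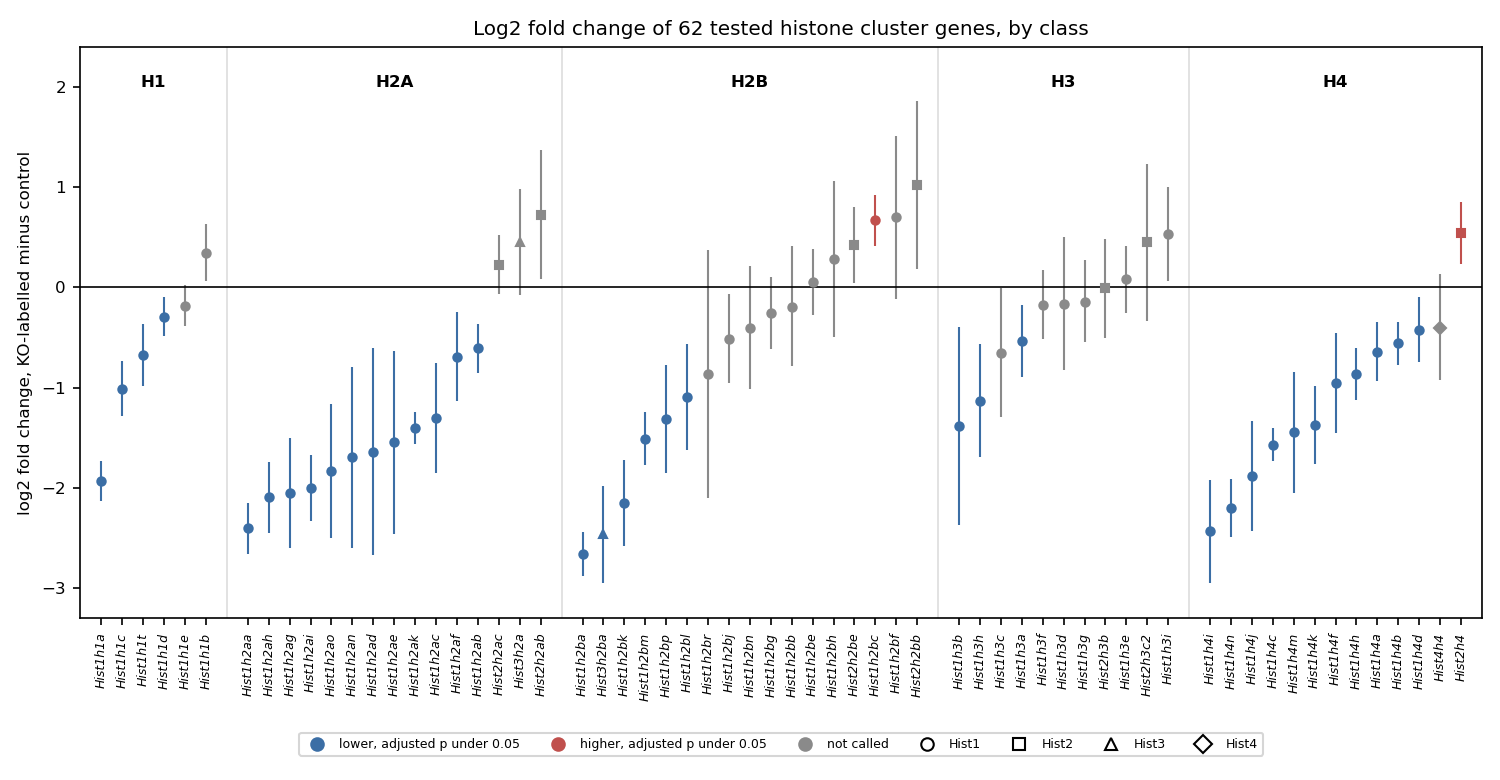
Log2 fold change (KO-labelled minus control, y axis) of each of the 62 tested histone cluster genes (x axis), grouped by histone class and sorted within it, with bars for the 95% interval of the edgeR fit of 3 against 3 libraries. Colour gives the call and shape the cluster. H2A and H4 genes of Hist1 (circles) lie below 0, while the Hist2 genes (squares) lie near or above it on the TMM scale, some of them below it with somatic marker scaling (*Hist2h2ac* at -0.21).

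The untested members were *Hist1h2ap*, *Hist2h2aa1*, *Hist2h2aa2*, *Hist1h2bq* and *Hist2h3c1*. *Hist2h3c1* had no count in any library, where 3 counts correspond to 0.0681 to 0.0864 CPM depending on the library, and the other 4 stayed at or below 0.385 CPM in each library. For *Hist2h2aa1* and *Hist2h2aa2*, which share an identical coding sequence, 3.7% and 0.0% of all 50-base stretches of the transcript occur in 1 gene. Reads that matched several genes were not counted, so a level near 0 there does not show that the genes were silent. Across members the median share of 50-base stretches found in 1 gene was 53.0%, 30 members were under 50%, and 8 shared their coding sequence with another gene of the group. Levels of such genes are uncertain, as is the split of reads among near-identical copies.

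Among these genes, 17 of the 26 tested members with under 50% of distinctive stretches were called lower (median log2 fold change -1.11), as were 17 of 31 with 50% to under 100% (median -0.53) and 2 of 5 in which all stretches were distinctive (median 0.34). Members called lower thus occurred in each of these sets, with the lowest median in the least distinctive one. The part of near-identical copies in the falls was not tested. Per kb of exon, the highest control levels were those of *Hist1h2aa* (1560 CPM per kb), *Hist1h2ak* (1558 CPM per kb), *Hist1h1a* (1017 CPM per kb), *Hist1h4c* (480 CPM per kb) and *Hist1h2ba* (442 CPM per kb). The first 2 did not differ beyond their spread. *Hist1h1a*, *Hist1h2aa*, *Hist1h2ak* and *Hist1h4c* held 63.0%, 63.8% and 58.9% of all member counts in the control and 41.3%, 43.6% and 44.9% in the KO-labelled libraries.

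The plot of levels by library shows the range from the strongest fall to the called rises.

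**Figure D2:**
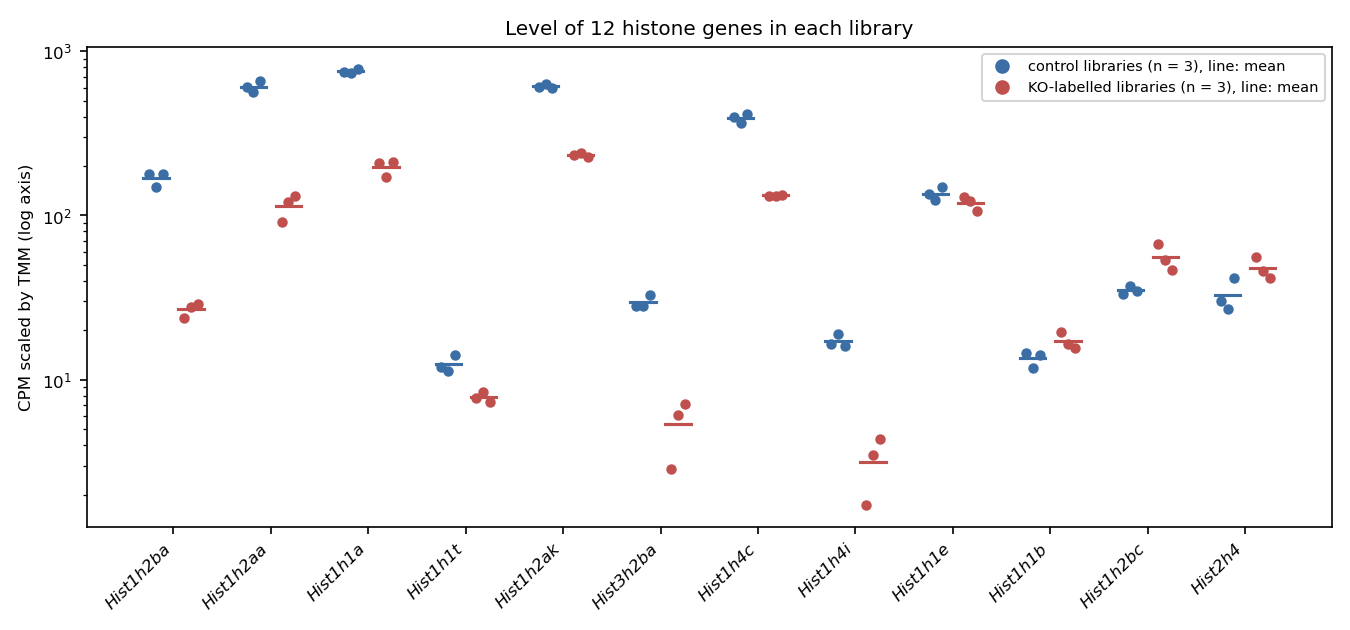
Level of 12 histone cluster genes in each of 3 control (blue) and 3 KO-labelled (red) libraries, as CPM scaled by TMM on a log axis, with a line at each group's mean. *Hist1h2ba* falls from a mean of 170 to 26.9 CPM and *Hist1h1a* from 754 to 198 CPM with no overlap between groups, *Hist1h1e* overlaps, and *Hist1h2bc* and *Hist2h4* are higher in the KO-labelled libraries, a rise not called with somatic marker scaling.

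H1 genes encode linker histones, which bind the DNA that enters and leaves the nucleosome. Of 6 tested, 4 were called lower, 0 higher and 2 not called, with a median log2 fold change of -0.48. The shares are 66.7% lower and 0% higher, against 16.5% and 16.2% of all genes tested. *Hist1h1a* (chromosome 13, 23763666 to 23764406, plus strand) encodes H1a, a subtype known to be abundant in testis. It had 742, 739 and 781 CPM in control and 209, 172 and 212 CPM in KO-labelled libraries. This 3.81-fold difference left a wide gap between the groups (log2 fold change -1.93 ± 0.09, edgeR adjusted p = 6.5e-09). *Hist1h1c* had 54.9, 42.0 and 65.2 CPM against 26.9, 26.3 and 27.5 CPM (-1.01 ± 0.13, edgeR adjusted p = 4.6e-05), and its KO-labelled values were nearly alike while the control values were spread. *Hist1h1t*, the spermatocyte linker histone H1t, had 12.0, 11.3 and 14.2 CPM against 7.76, 8.47 and 7.33 CPM (-0.67 ± 0.15, edgeR adjusted p = 2.53e-03).

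The other H1 genes changed little or could not be called. *Hist1h1d* had a log2 fold change of -0.29 ± 0.09 (edgeR adjusted p = 2.32e-02), and the call was lost without control library 1, 2 or 3 or KO-labelled library 1 or 2, with adjusted p from 0.0603 to 0.103. *Hist1h1e* had 135, 124 and 148 CPM against 130, 123 and 106 CPM (log2 fold change -0.18 ± 0.09, 95% interval -0.38 to 0.02, edgeR adjusted p = 0.155). It was called lower with somatic marker scaling (-0.62, edgeR adjusted p = 8.64e-05). *Hist1h1e* overlaps *Hist1h2be* and *Gm11398* on the same strand, and reads in the shared part were not counted for any of them. *Hist1h1b* had 14.6, 11.8 and 14.2 CPM against 19.5, 16.4 and 15.6 CPM, with every KO-labelled library above the controls but no call (0.34 ± 0.13, edgeR adjusted p = 0.063). Without KO-labelled library 3 it was called higher (0.42, edgeR adjusted p = 0.0377), and with somatic marker scaling its value was -0.10.

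The make-up of the H1 pool therefore differed between groups. *Hist1h1a* held 74.3%, 76.3% and 73.3% of all H1 counts in the control and 49.1%, 45.4% and 52.5% in the KO-labelled libraries. *Hist1h1e* held 13.5%, 12.9% and 13.9% against 30.5%, 32.5% and 26.3%. The ratio of *Hist1h1a* to *Hist1h1e* counts, which needs no scaling between libraries, was 5.51, 5.94 and 5.28 in the control and 1.61, 1.40 and 2.0 in the KO-labelled libraries. Neither share nor ratio overlapped between the groups. The pair was chosen after its values were seen, so the ratio is a description with no test.

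The upstream sequences of *Hist1h1a*, which fell, and *Hist1h1b*, which did not, are shown to compare their promoter elements. Each line gives the 250 bases before the RefSeq start on GRCm38.p6, 5′ to 3′ on the strand of the gene, with capitals for the CCAAT box (spelled CCAAT), the TATA box (spelled TATAAA) and the AC box (spelled AAACACA) on either strand.
*Hist1h1a*, chr13:23763418-23763667, plus strand: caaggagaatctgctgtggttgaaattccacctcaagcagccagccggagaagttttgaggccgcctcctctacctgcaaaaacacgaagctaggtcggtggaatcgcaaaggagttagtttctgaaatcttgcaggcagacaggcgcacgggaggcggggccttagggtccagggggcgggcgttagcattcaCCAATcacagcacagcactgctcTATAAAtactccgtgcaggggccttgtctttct
*Hist1h1b*, chr13:21780626-21780875, minus strand: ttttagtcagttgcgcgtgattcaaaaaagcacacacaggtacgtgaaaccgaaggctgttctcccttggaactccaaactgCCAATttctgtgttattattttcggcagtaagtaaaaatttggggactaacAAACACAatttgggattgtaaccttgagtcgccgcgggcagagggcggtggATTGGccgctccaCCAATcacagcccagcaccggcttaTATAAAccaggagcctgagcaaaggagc
Both windows held a CCAAT box and a TATA box. The AC box, an element of H1 promoters, was matched in 5 of 6 H1 promoters of 300 bases, in all but that of *Hist1h1a*, against 7.14% of 27025 promoters of that length.

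H2A genes fell most as a class. H2A pairs with H2B in the core of the nucleosome, and of 15 tested H2A genes 12 were called lower, 0 higher and 3 not called, with a median log2 fold change of -1.54. The shares are 80% lower and 0% higher, against 16.5% and 16.2% of all genes tested. All 12 tested H2A genes of Hist1 were called lower, and none of the 3 outside Hist1 was. The summed level of the class was 1452 ± 82.8 CPM in control and 450 ± 23.0 CPM in KO-labelled libraries (SD, n = 3 each), a 3.23-fold difference.

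*Hist1h2aa*, which encodes the testis variant TH2A, had 604, 562 and 659 CPM in control and 91.1, 121 and 132 CPM in KO-labelled libraries. It fell 5.30-fold (log2 fold change -2.4 ± 0.12, edgeR adjusted p = 8.1e-09). *Hist1h2ak*, a canonical H2A gene, had 609, 631 and 598 CPM against 232, 239 and 226 CPM (-1.40 ± 0.07, edgeR adjusted p = 1.2e-08). The libraries of each group were close together, and the groups far apart, in both genes. *Hist1h2ai* had 56.3, 65.5 and 91.0 CPM against 19.5, 18.4 and 15.2 CPM (-2.0 ± 0.15, edgeR adjusted p = 4.2e-07). Only 9.9% of its 50-base stretches and 47.7% of those of *Hist1h2ak* occur in 1 gene, against 97.7% for *Hist1h2aa*.

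Some H2A calls did not hold without single libraries. *Hist1h2ae* had 7.86, 6.52 and 29.6 CPM in control and 3.58, 5.79 and 5.71 CPM in KO-labelled libraries (-1.54 ± 0.43). Without control library 3, which stood far above the other controls, its value was -0.51 (edgeR adjusted p = 0.114), and DESeq2 did not call it either (adjusted p = 0.107). *Hist1h2ad* had 9.36, 2.52 and 2.82 CPM against 1.6, 2.4 and 0.655 CPM (-1.64 ± 0.48), and without control library 1 its value was -0.78 (edgeR adjusted p = 0.193), while DESeq2 did not call it (-1.63, adjusted p = 0.116). *Hist1h2an* was lost without control library 3 (-1.38, edgeR adjusted p = 0.0541). *Hist1h2af* was lost without control library 2 or 3 or KO-labelled library 1 or 3, with adjusted p from 0.0509 to 0.116.

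The H2A genes outside Hist1 were not called. *Hist2h2ac* had 11.8, 15.1 and 15.2 CPM against 14.7, 18.2 and 16.2 CPM (log2 fold change 0.22, 95% interval -0.07 to 0.52). *Hist2h2ab* had 1.09, 0.988 and 1.5 CPM against 2.04, 2.24 and 1.65 CPM (0.72, interval 0.08 to 1.37, edgeR adjusted p = 8.18e-02). *Hist3h2a* had 5.41, 3.91 and 4.36 CPM against 7.87, 7.05 and 3.75 CPM (0.45, interval -0.08 to 0.98). The groups overlapped for the first and the last of these, and *Hist3h2a*, which overlaps *Trim17* on the same strand, was called higher without KO-labelled library 3 (0.72, edgeR adjusted p = 0.0103). With somatic marker scaling *Hist2h2ac* was at -0.21 and *Hist3h2a* at 0.00.

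H2B genes ranged from strong falls to a called rise. Of 17 tested, 6 were called lower, 1 higher and 10 not called, with a median log2 fold change of -0.40. The shares are 35.3% lower and 5.88% higher, against 16.5% and 16.2% of all genes tested. *Hist1h2ba* encodes TH2B, the testis H2B variant that spermatocytes accumulate. It had 179, 150 and 180 CPM in control and 23.8, 27.6 and 29.1 CPM in KO-labelled libraries, a 6.31-fold fall and the lowest log2 fold change of all members (-2.66 ± 0.10, edgeR adjusted p = 3.1e-09). *Hist3h2ba*, from the small Hist3 cluster, had 28.2, 28.0 and 32.7 CPM against 2.86, 6.07 and 7.12 CPM (-2.46 ± 0.23, edgeR adjusted p = 2.6e-06). The groups did not overlap in either gene.

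*Hist1h2bm* had 37.7, 35.5 and 43.0 CPM against 15.4, 11.6 and 14.0 CPM (log2 fold change -1.51 ± 0.12, edgeR adjusted p = 7.7e-07). *Hist1h2bk* had 8.03, 8.85 and 12.1 CPM against 2.39, 2.05 and 2.07 CPM (-2.15 ± 0.20, edgeR adjusted p = 2.6e-06). Both fell in every KO-labelled library. In contrast, *Hist1h2bc* had 33.4, 37.3 and 34.5 CPM in control and 67.3, 53.5 and 46.4 CPM in KO-labelled libraries (0.67 ± 0.12, edgeR adjusted p = 6.5e-04). All KO-labelled values were above all control values, and with somatic marker scaling the rise was 0.22 and not called (edgeR adjusted p = 0.172).

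*Hist2h2bb* had the highest log2 fold change of all members, at low counts. It had 0.461, 0.659 and 0.863 CPM against 1.73, 1.31 and 1.02 CPM, with every KO-labelled library above every control (1.02 ± 0.39, edgeR adjusted p = 0.0611). It was called higher with at least 10 counts in every library (1.0, edgeR adjusted p = 0.0424) and without KO-labelled library 3 (1.20, edgeR adjusted p = 0.0424). The gene overlaps *Gm42743* on the same strand.

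*Hist1h2bb*, the H2B gene with the second highest level per kb in the control (181 CPM per kb), had 108, 70.8 and 97.2 CPM against 125, 38.4 and 78.6 CPM. KO-labelled library 1 was above every control and library 2 below every control, so the difference could not be resolved (-0.19, 95% interval -0.78 to 0.41, edgeR adjusted p = 0.652). Without KO-labelled library 1 it was called lower (-0.64, edgeR adjusted p = 0.0365), and without library 2 its value was 0.16.

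The make-up of the H2B pool shifted with these genes. *Hist1h2ba* held 38.9%, 38.0% and 38.2% of H2B counts in the control and 7.93%, 15.2% and 12.3% in the KO-labelled libraries. *Hist1h2bc* held 7.28%, 9.45% and 7.31% against 22.4%, 29.4% and 19.6%. The groups did not overlap for either share, and a share does not depend on scaling between libraries. The TH2A gene *Hist1h2aa* likewise held 43.0%, 40.0% and 42.5% of H2A counts against 21.4%, 25.7% and 29.1%.

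**Figure D3:**
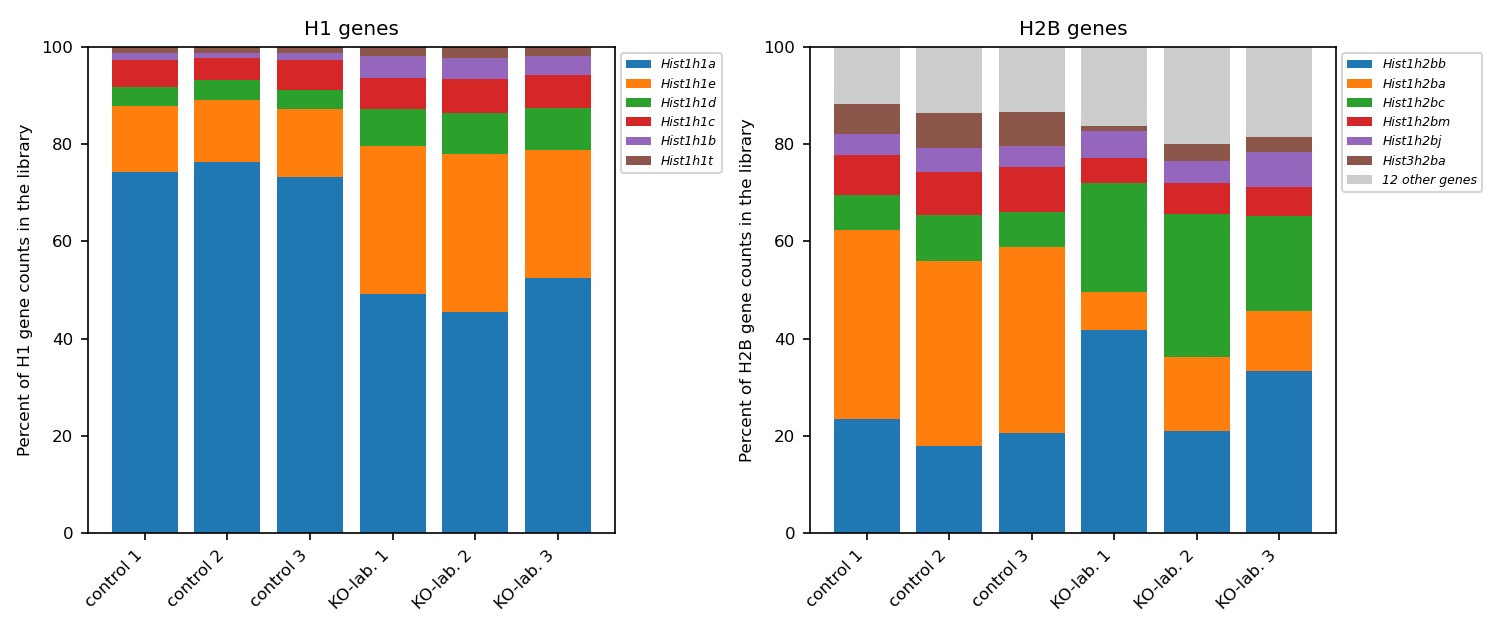
Share of each gene in the counts of its class, in percent, for the H1 genes (left) and the H2B genes (right) in each of 3 control and 3 KO-labelled libraries. The share of *Hist1h1a* falls from between 73.3% and 76.3% to between 45.4% and 52.5%, and that of *Hist1h2ba* from between 38.0% and 38.9% to at most 15.2%.

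H3 genes had the median closest to 0. H3 forms the nucleosome core with H4, and of 11 tested H3 genes 3 were called lower, 0 higher and 8 not called, with a median log2 fold change of -0.16. The 27.3% called lower is near the 16.5% of all genes tested. *Hist1h3h* had 14.3, 11.2 and 24.3 CPM in control and 4.90, 8.71 and 9.14 CPM in KO-labelled libraries (log2 fold change -1.13 ± 0.26, edgeR adjusted p = 4.22e-03). *Hist1h3a* had 16.5, 12.6 and 21.4 CPM against 10.7, 12.3 and 12.0 CPM (-0.53 ± 0.17, edgeR adjusted p = 2.62e-02). The groups did not overlap, but controls of both genes were spread, and the call of *Hist1h3a* was lost without control library 1 or 3 or KO-labelled library 1 or 2 (adjusted p from 0.0531 to 0.16). *Hist1h3b* had 2.10, 1.55 and 6.75 CPM against 0.825, 1.75 and 1.41 CPM (-1.38 ± 0.46, edgeR adjusted p = 3.25e-02), and it was lost without control library 3 (-0.45, adjusted p = 0.419) or KO-labelled library 1 (-1.13, adjusted p = 0.0935) and with limma-voom (-1.15, adjusted p = 0.105). The number of H3 genes called lower was 1 without control library 3, 1 without KO-labelled library 1 and 5 without KO-labelled library 3. Summed over the class, H3 genes had 78.6, 70.6 and 117 CPM against 62.6, 74.8 and 75.5 CPM, which overlap. Only 6.1% of the 50-base stretches of *Hist1h3h* occur in 1 gene, against 50.5% for *Hist1h3a* and 39.6% for *Hist1h3b*. Reads that matched several genes were not counted, so the H3 levels and their sum are uncertain.

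H4 genes fell nearly throughout. Of 13 tested, 11 were called lower, 1 higher and 1 not called, with a median log2 fold change of -0.95, and the 11 were all the H4 genes of Hist1. The shares are 84.6% lower and 7.69% higher, against 16.5% and 16.2% of all genes tested. *Hist1h4c* had 399, 367 and 415 CPM in control and 132, 132 and 134 CPM in KO-labelled libraries (-1.57 ± 0.08, edgeR adjusted p = 7.9e-09). *Hist1h4n* had 60.2, 66.0 and 70.0 CPM against 10.8, 15.9 and 15.9 CPM (-2.20 ± 0.14, edgeR adjusted p = 4.9e-08). In both genes even the lowest control was well above the highest KO-labelled library, although *Hist1h4n* shares its coding sequence with *Hist1h4m* and only 14.4% of its 50-base stretches occur in 1 gene. *Hist1h4i* had 16.6, 19.1 and 16 CPM against 1.73, 3.46 and 4.35 CPM (-2.43 ± 0.24, edgeR adjusted p = 4.6e-06). *Hist1h4a* had 87.4, 75.8 and 124 CPM against 61.8, 58.4 and 64.4 CPM, a smaller fall (-0.64 ± 0.14, edgeR adjusted p = 2.48e-03). The weakest call was that of *Hist1h4d* (-0.42 ± 0.15, edgeR adjusted p = 4.59e-02), which was lost without control library 2 or 3 or KO-labelled library 1 or 3 (adjusted p from 0.0905 to 0.295) and with limma-voom (0.0582).

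The H4 genes outside Hist1 were not called lower on the TMM scale. *Hist2h4* (chromosome 3, 96261682 to 96263311, minus strand) had 30.2, 26.9 and 41.5 CPM in control and 55.6, 46.1 and 41.5 CPM in KO-labelled libraries. It was called higher on the TMM scale (log2 fold change 0.54 ± 0.15, edgeR adjusted p = 1.08e-02), but not without control library 1 (0.48, adjusted p = 0.0525), without control library 2 (0.45, adjusted p = 0.0506) or with somatic marker scaling (0.10, adjusted p = 0.588). *Hist4h4* had 6.94, 6.85 and 13 CPM against 4.92, 7.61 and 7.86 CPM and was not called (-0.40, 95% interval -0.92 to 0.13), but was called lower with somatic marker scaling (-0.81, edgeR adjusted p = 0.00415). The ratio of *Hist1h4i* to *Hist2h4* counts, whose stem-loops are identical, was 0.548, 0.711 and 0.386 in the control and 0.0312, 0.0749 and 0.105 in the KO-labelled libraries. It did not overlap between groups and needs no scaling, and no test is given because the pair was chosen after its values were seen.

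By cluster, the falls lay almost wholly in Hist1, which also held 52 of the 62 tested members. Of 52 tested Hist1 genes 35 were called lower (67.3%) and 1 higher (1.92%), with a median log2 fold change of -0.91. The summed level of the cluster was 3731 ± 277 CPM in control and 1468 ± 44.8 CPM in KO-labelled libraries. The median of the 7 tested Hist2 genes was 0.45 on the TMM scale. Of these 0 were called lower and 1 higher (14.3%), against 16.5% and 16.2% of all genes tested. DESeq2 and limma-voom also called 0 lower and 1 higher, and at an unadjusted p under 0.05 the counts were 0 and 4. Summed over Hist2 the level was 53.0, 53.7 and 71.6 CPM against 87.6, 81.6 and 70.5 CPM, so the groups overlapped. Hist3 held 1 gene called lower, *Hist3h2ba*, and *Hist3h2a*, which was not called. The difference between clusters was not tested, since genes are not replicates.

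Within Hist1, gaps of over 100000 bases divide the genes into 4 stretches of chromosome 13. The stretch from 21715763 to 21837530 had 12 of 16 tested genes called lower (median log2 fold change -1.38), and that from 22035164 to 22043676 had 4 of 5 (median -2.09). The largest, from 23531050 to 23764406, had 17 of 29 called lower and 1 higher (median -0.55). The last, from 23933773 to 23934851, holds only *Hist1h2aa* and *Hist1h2ba*, both lower (median -2.53). The first 3 stretches each held genes called lower and genes that were not. Of all genes tested 16.5% were called lower and 16.2% higher.

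Many H2A and H2B genes lie head to head and share the DNA between their starts. The annotation holds 12 such H2A and H2B pairs with at most 1000 bases between the genes, and both genes were tested in 10. Both were called lower in 4 pairs, 1 was lower and 1 higher in 1 pair, 1 gene was called in 4 pairs, and neither in 1. The H2A gene had the lower log2 fold change in 8 of 10 pairs, with medians of -1.67 for the H2A and -0.45 for the H2B genes. Across the 10 pairs the 2 values had a Pearson r of 0.66, or 0.57 without *Hist1h2aa* and *Hist1h2ba*, a description over pairs measured in the same libraries.

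**Figure D4:**
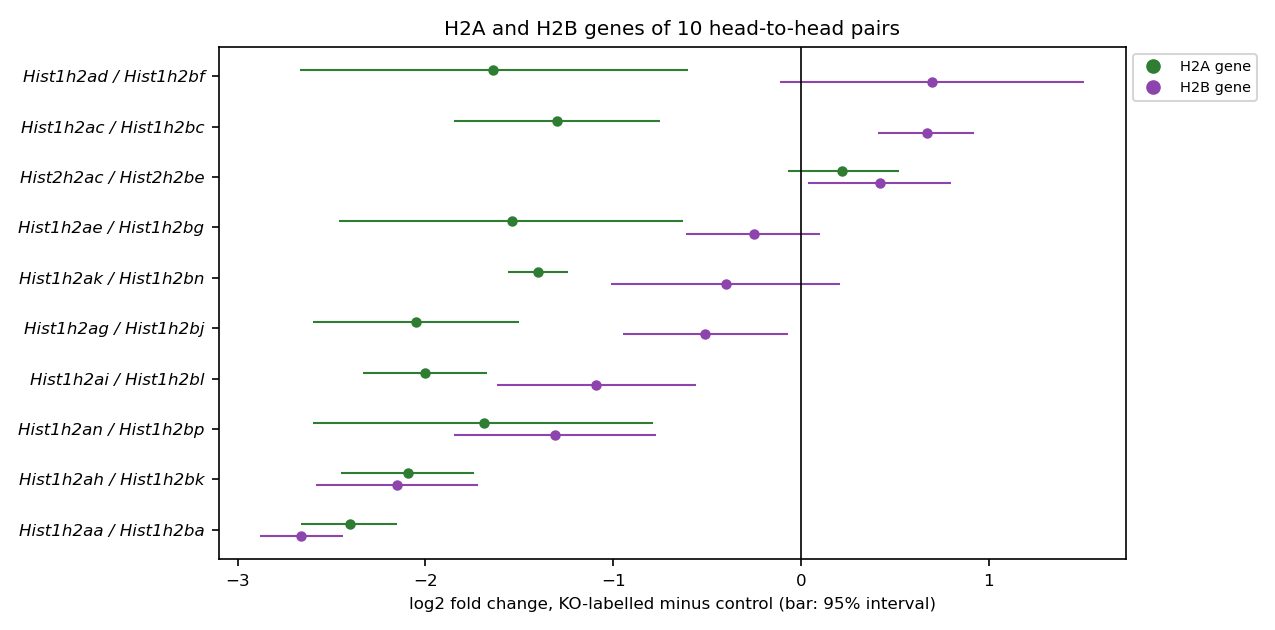
Log2 fold change (x axis, KO-labelled minus control) of the H2A gene (green) and the H2B gene (purple) of 10 head-to-head pairs, with bars for the 95% interval of the edgeR fit. The genes of *Hist1h2aa* / *Hist1h2ba* and *Hist1h2ah* / *Hist1h2bk* fall together, while those of *Hist1h2ac* / *Hist1h2bc* lie on opposite sides of 0, at -1.30 and 0.67 (0.22 with somatic marker scaling).

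The 4 pairs in which both fell were *Hist1h2aa* with *Hist1h2ba*, *Hist1h2ah* with *Hist1h2bk* (log2 fold changes -2.09 and -2.15), *Hist1h2an* with *Hist1h2bp* (-1.69 and -1.31) and *Hist1h2ai* with *Hist1h2bl* (-2.0 and -1.09). In 4 further pairs only the H2A gene was called, namely *Hist1h2ak* with *Hist1h2bn* (-1.40 and -0.40), *Hist1h2ag* with *Hist1h2bj* (-2.05 and -0.51), *Hist1h2ae* with *Hist1h2bg* (-1.54 and -0.25) and *Hist1h2ad* with *Hist1h2bf* (-1.64 and 0.70). With somatic marker scaling *Hist1h2bn* (-0.83, edgeR adjusted p = 0.00573), *Hist1h2bj* (-0.95, 0.000117) and *Hist1h2bg* (-0.70, 0.00212) were called lower too, so that both genes were lower in 7 pairs, 1 gene was called in 2 and neither in 1. The Hist2 pair of *Hist2h2ac* and *Hist2h2be* had 0.22 and 0.42, with no call. *Hist1h2bj* is a borderline member, since it was also called lower by limma-voom (adjusted p = 0.0346), with no filter (0.00348), with the replicate block (0.0245) and without KO-labelled library 1 or 3.

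Count ratios within a pair compare its genes free of scaling. The ratio of *Hist1h2ac* to *Hist1h2bc* was 0.209, 0.185 and 0.310 in the control and 0.0376, 0.0904 and 0.0559 in the KO-labelled libraries. That of *Hist1h2ag* to *Hist1h2bj* was 0.323, 0.414 and 0.659 against 0.131, 0.315 and 0.116. That of *Hist1h2aa* to *Hist1h2ba* was 3.37, 3.74 and 3.66 against 3.82, 4.38 and 4.54. The ratio thus fell without overlap in the first 2 of these and rose slightly in the last. Of the 10 pairs 4 had a lower and 1 a higher ratio with no overlap, and 5 overlapped. Exact two-sided permutation p-values of the log2 ratio were 0.1 for those without overlap, the smallest that 20 arrangements allow, or 0.2 after Benjamini-Hochberg adjustment over the 10 pairs, so no ratio could pass 0.05. *Hist1h2ac* had 7, 6.92 and 10.7 CPM against 2.53, 4.83 and 2.59 CPM (log2 fold change -1.30 ± 0.26, edgeR adjusted p = 1.3e-03), while *Hist1h2bc* rose.

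Sequence from between the genes of the pair that fell most and of the pair that split is shown because the genes of a pair share it. Each line is the 250 bases before the RefSeq start of the first gene named on GRCm38.p6, with capitals for the elements above and for the octamer (spelled ATTTGCAT), an element of H2B promoters, on either strand.
*Hist1h2ba* toward *Hist1h2aa*, chr13:23934157-23934406, minus strand: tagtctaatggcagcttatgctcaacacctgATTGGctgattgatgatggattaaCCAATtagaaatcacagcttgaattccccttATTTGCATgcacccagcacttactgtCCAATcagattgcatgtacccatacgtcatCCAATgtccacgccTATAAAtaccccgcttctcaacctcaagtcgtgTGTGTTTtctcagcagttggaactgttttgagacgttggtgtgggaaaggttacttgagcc
*Hist1h2ac* toward *Hist1h2bc*, chr13:23683960-23684209, minus strand: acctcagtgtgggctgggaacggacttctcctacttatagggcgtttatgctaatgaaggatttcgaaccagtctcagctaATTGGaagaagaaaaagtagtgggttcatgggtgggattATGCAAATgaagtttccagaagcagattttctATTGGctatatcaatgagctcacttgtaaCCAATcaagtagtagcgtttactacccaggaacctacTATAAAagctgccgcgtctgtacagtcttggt
Both windows held an octamer, CCAAT boxes and a TATA box, and the AC box was matched in that of *Hist1h2ba* and not in that of *Hist1h2ac*. The first window covers 250 of the 305 bases between its genes and leaves out those next to *Hist1h2aa*, and the second reaches into the annotated start of *Hist1h2bc*. The annotated start of *Hist1h2ba* is that of its coding sequence, so its window also covers whatever the transcript holds before it.

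RefSeq promoters of 300 bases, 250 before and 50 after the start, matched 61 of 67 members. *Hist1h2ap*, *Hist1h2bc*, *Hist1h3a*, *Hist1h3f*, *Hist2h2be* and *Hist2h4* had no match. On either strand, the CCAAT box occurred in 85.2% of them (37.9% of 27025 promoters in the table), the TATA box in 57.4% (14.2%), the octamer in 21.3% (1.75%) and the AC box in 14.8% (7.14%). The 13 promoters with an octamer were all of H2A or H2B genes, and the 9 without a CCAAT box were all of H4 genes. Of tested members with a TATA box 24 of 34 were called lower (median log2 fold change -1.31), and of those without one 11 of 23 (median -0.65). With a CCAAT box 27 of 48 were called lower (median -0.66), and of those without one, all H4 genes, 8 of 9 (median -1.37). With an AC box 7 of 9 were called lower (median -0.67), and without one 28 of 48 (median -0.86). With an octamer 8 of 13 were called lower, and among H2A and H2B genes without one 10 of 17. These counts are descriptions, and no difference between them was tested.

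The annotated 3′ end was the other feature that varied within classes. Of 17 tested members whose annotation ends within 50 bases after the stem-loop, 13 were called lower and 0 higher (median log2 fold change -0.95). Of 25 whose annotation runs on past that point, as the poly(A) forms of histone mRNAs do, 12 were called lower and 1 higher (median -0.40). Without its H1 genes, a class that the first group lacks, this second group had 9 of 21 called lower (median -0.40). Members with no annotated 3′ UTR had 8 of 13 called lower (median -1.13), and those with a 3′ UTR but no stem-loop found 3 of 7, with 1 higher. *Hist1h2bc*, the 1 called higher, had 742 bases of annotated 3′ UTR. The 3 called lower, *Hist1h1a*, *Hist1h2ah* and *Hist1h2af*, had 48, 2 and 1 bases. The last 2 are too short to hold the 16-base hairpin, and that of *Hist1h1a* may end before it. Poly(T) and random primers were both used for these libraries, so both kinds of transcript could be read, and the counts do not tell them apart. No difference between these groups of members was tested.

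Genes that control histone mRNA were described from lists of regulators. Of 10 transcription regulators 7 were called lower and 0 higher (median log2 fold change -0.49). These are 70% and 0%, against 16.5% and 16.2% of all genes tested. *Npat*, the coactivator of histone gene transcription, had 191, 221 and 178 CPM in control and 137, 144 and 146 CPM in KO-labelled libraries (-0.46 ± 0.09, edgeR adjusted p = 8.4e-04). *Ccne2* and *Ccne1*, which encode the cyclins E, fell by 1.88 and 1.26 on the log2 scale. *Ccne2* had 89.2, 91.3 and 85.6 CPM against 26.0, 22.0 and 24.1 CPM, with no overlap.

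Of 13 genes of histone pre-mRNA 3′ end processing 3 were called lower and 0 higher (median log2 fold change -0.13). The 23.1% called lower is near the 16.5% of all genes tested. *Slbp*, the stem-loop binding protein, had 133, 136 and 125 CPM against 91.9, 97.0 and 86.7 CPM (-0.52 ± 0.08, edgeR adjusted p = 1.6e-04). *Zfp473*, a zinc finger protein of the same machinery, had 8.35, 10 and 9.84 CPM against 3.27, 3.88 and 3.09 CPM (-1.46 ± 0.17, edgeR adjusted p = 2.0e-05). All KO-labelled libraries were below all controls for both genes.

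Of 14 genes of histone mRNA decay, a list that includes *Dis3* and *Dis3l2*, 5 were called lower and 1 higher (median log2 fold change -0.20). These are 35.7% and 7.14%, against 16.5% and 16.2% of all genes tested. *Tut4* had 217, 201 and 199 CPM against 128, 137 and 135 CPM (-0.62 ± 0.08, edgeR adjusted p = 2.5e-05). *Tut7* had 108, 112 and 97.9 CPM against 132, 127 and 123 CPM, called higher on the TMM scale (0.27 ± 0.08, edgeR adjusted p = 1.73e-02) but not without control library 1 or 3 (adjusted p = 0.0716 and 0.0779), and at -0.17 with somatic marker scaling. *Eri1*, the exonuclease that trims the stem-loop end, had 44.4, 49.8 and 49.8 CPM against 44.1, 40.8 and 40.2 CPM and was not called (-0.20 ± 0.09, edgeR adjusted p = 9.78e-02). The 2 uridylyltransferases thus lay on opposite sides of 0 on the TMM scale and on the same side with somatic marker scaling.

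Histone chaperones, which escort histones to DNA, had 5 of 19 called lower and 4 higher on the TMM scale (median log2 fold change -0.14). These are 26.3% and 21.1%, near the 16.5% and 16.2% of all genes tested. *Nasp*, a chaperone of linker and H3-H4 histones, had 729, 813 and 625 CPM against 290, 304 and 333 CPM (-1.23 ± 0.10, edgeR adjusted p = 6.2e-07). *Asf1b*, which hands over H3-H4, fell by 1.76 on the log2 scale (edgeR adjusted p = 1.1e-08). *Set* and *Anp32e* were called higher at 0.62 and 0.35, and with somatic marker scaling they were at 0.18, not called, and -0.09. Over the 6 lists of histone and S phase genes together 45 genes were called lower and 7 higher, against 77 and 0 with somatic marker scaling. The S phase list alone gave 22 of the 45, so the pooled count does not describe each list. Somatic marker scaling moved the median of all genes by -0.438, and the share of all genes called on it is not given.

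Replacement histone genes encode variants such as H3.3, and many of them are also expressed outside S phase. They were called in shares of 27.3% lower and 18.2% higher, near the 16.5% and 16.2% of all genes tested. Of 11 tested among 14, 3 were called lower and 2 higher (median log2 fold change 0.12), and the other 3, *H1foo*, *Hils1* and *H1fnt*, had too few counts to test. *H2afx*, the variant phosphorylated at DNA breaks, had 451, 411 and 683 CPM against 124, 156 and 144 CPM (-1.87 ± 0.15, edgeR adjusted p = 7.9e-07). *H1fx* had 73.3, 73.3 and 87.6 CPM against 25.8, 23.7 and 28.5 CPM (-1.59 ± 0.10, edgeR adjusted p = 8.8e-08). The groups were far apart in both. *H2afy2* and *H2afy*, which encode macroH2A proteins, were called higher at 0.63 and 0.26, and neither was with somatic marker scaling (0.20 and -0.17). The call of *H2afy* was also lost without control library 1 (adjusted p = 0.0887) and without KO-labelled library 2 or 3 (0.0692 and 0.0636).

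S phase genes, which share their timing with the cluster genes, were mostly lower. Of 26 tested 22 were called lower and 0 higher (median log2 fold change -0.82), and their summed level was 1841, 1929 and 1856 CPM against 1098, 1146 and 1170 CPM. The shares are 84.6% lower and 0% higher, against 16.5% and 16.2% of all genes tested. *Mcm5* of the replicative helicase and *Lig1*, the replicative DNA ligase, both had -1.01. The cluster genes had a median of -0.66 beside the -0.82 of this list, and the summed CPM of both was lower in every KO-labelled library than in every control.

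Markers of cell types moved with these results, and their part in them was not tested. Where a marker or regulator list has 0 calls in 1 direction here, DESeq2 and limma-voom also called 0, and at an unadjusted p under 0.05 only the S phase genes (1 higher), the peritubular myoid cells (1 higher) and the red blood cells (1 lower) had any. All 19 markers of meiotic prophase whose listed symbol was found in the annotation were called lower (median log2 fold change -1.87). Their summed level was 1875 to 2296 CPM in control and 563 to 738 CPM in KO-labelled libraries. Of 12 markers of differentiating spermatogonia 9 were called lower and 1, *Ccnd2*, higher (median -1.40, sums of 1217 to 1271 against 633 to 755 CPM). Of 14 markers of undifferentiated spermatogonia 0 were called lower and 6 higher (median 0.39, sums of 477 to 505 against 530 to 639 CPM). Among all genes tested 16.5% were called lower and 16.2% higher. *Sycp2* of the synaptonemal complex fell by 2.28 on the log2 scale and *Tex101*, a germ cell surface protein, by 2.39, next to the 2.66 of *Hist1h2ba*.

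Somatic markers were mostly level or higher on the TMM scale. Called higher were 22 of 24 Sertoli cell markers (median log2 fold change 0.69, sums of 11654 to 12743 against 18559 to 19584 CPM), 8 of 11 tested Leydig cell markers (median 0.52, 646 to 722 against 934 to 1078 CPM), 6 of 10 of macrophages (0.45, 166 to 189 against 209 to 315 CPM), 3 of 10 of endothelial cells (0.15, 376 to 439 against 509 to 552 CPM) and 5 of 12 of stromal cells (0.32, 5370 to 6794 against 6157 to 9500 CPM). Called lower were 3 of 10 markers of peritubular myoid cells (median -0.16, 1706 to 1720 against 1424 to 1546 CPM). Of all genes tested 16.5% were called lower and 16.2% higher, against 30% lower for these and 30% higher for the endothelial markers. Red blood cell markers had no call among 5 tested (median -0.28, 15.4 to 18.5 against 10.4 to 14.6 CPM). *Amh*, the Sertoli cell hormone, rose by a log2 fold change of 1.56 and *Bex2* by 1.19. The Leydig cell marker *Cyp2a4* and the red blood cell markers *Hba-a1* and *Hba-a2* had too few counts to test.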

How the data were processed

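The authors trimmed 50-base single-end reads with cutadapt, aligned them with HISAT2 (GRCm38.p5 per the labels) and deposited raw counts per gene from featureCounts 1.6.4 over GENCODE M18, read on 1 strand, without reads that match several places or genes. Total RNA had been primed with both random and poly(T) primers. Unused columns of values numbered 0. Names, biotypes and gene models came from GENCODE M21, which holds 54165 of 54232 identifiers.

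The quasi-likelihood test of edgeR 4.0.16 was run in R 4.3.3 with TMM factors, filterByExpr and Benjamini-Hochberg adjustment over 20327 genes. Alternatives were DESeq2 1.42.0, limma-voom 3.58.1, RLE, upper-quartile and somatic marker factors, a block for replicate numbers, filters of none, of 10 counts per library and of protein-coding genes, and omission of single libraries. The scripts were tested on simulated counts. Promoters came from RefSeq.

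Members and lists were chosen with earlier results of these data known. Named were, per class, the 3 called genes of lowest adjusted p in either direction, the 2 highest per kb, uncalled members of classes with at most 3, testis-enriched members, described pairs, and at most 2 genes per list and direction. Other members, such as *Hist1h1d*, *Hist1h2af* and *Hist1h4d*, were named after their values were seen.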

Additional observations from a re-analysis of the deposited data

How the results depend on the processing

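Of the 36 members called lower, 28 were called in all 15 other settings. DESeq2 and limma-voom each called 34 lower and 2 higher. Scaling by somatic markers changed most: 0 members were called higher, H2B genes called lower rose to 10 and H3 genes to 6, the called H2B and H4 rises went to 0, and the histone and S phase lists had 77 lower and 0 higher. On that scale the log2 fold change turned to -0.22 for *Dis3l2*, -0.10 for *Hist1h1b*, -0.38 for *Hist1h2be*, -0.17 for *Hist1h2bh*, -0.35 for *Hist1h3e*, -0.21 for *Hist2h2ac*, -0.02 for *Hist2h2be*, 0.00 for *Hist3h2a*, -0.09 for *Anp32e*, -0.17 for *H2afy* and -0.17 for *Tut7*. By construction it sets the median somatic marker, and not the average gene, to no change. It moved the median of all genes by -0.438, and the share of all genes called on that scale is not given here. With no filter 1 H1 gene was called higher, and with at least 10 counts in every library 2 H2B genes were.

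Leaving out 1 library in turn gave 29 to 37 members lower and 1 to 5 higher. By class, H1 genes called higher ran from 0 to 1, H2A from 0 to 1, H2B from 1 to 2, H3 from 0 to 1 and H4 from 0 to 1, H3 genes called lower from 1 to 5, and list genes called higher from 4 to 8. Uncalled members crossed 0, with ranges of -0.64 to 0.16 for *Hist1h2bb*, -0.03 to 0.18 for *Hist1h2be*, -0.11 to 0.53 for *Hist1h2bh*, -0.58 to 0.01 for *Hist1h2bn*, -0.70 to 0.15 for *Hist1h3d*, -0.01 to 0.22 for *Hist1h3e*, -0.31 to 0.04 for *Hist1h3f*, -0.25 to 0.07 for *Hist1h3g* and -0.19 to 0.24 for *Hist2h3b*. *Hist2h3b*, at -0.01, was also at 0.01 with DESeq2, 0.00 with RLE factors, 0.01 with no filter and 0.01 with the replicate block. For all of these the cause was not tested.

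Deviations of libraries with the same number had correlations of -0.0014, -0.0126 and 0.0139 over genes, and no pairing was assumed. With the replicate number as a block, 37 members were called lower and 2 higher. Reads that match several histone genes were not counted, which limits the levels of members with few distinctive stretches, and counts cannot separate stem-loop from poly(A) ends.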
